A study of Mus musculus with 3 samples.

Results

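The SOCS family is a set of 8 mouse genes, Socs1 to Socs7 and Cish, whose products restrain cytokine signalling. The 8 members were taken by gene symbol from the 55536 annotated genes in the tables, of which 22028 were protein coding, a rule that uses no measured value. Cytokine receptors of this kind activate Janus kinases (JAKs), which phosphorylate the receptor and the STAT transcription factors. STATs then switch on some SOCS genes, whose proteins feed back on the pathway. Each SOCS protein carries an SH2 domain, which binds phosphorylated tyrosine, and a SOCS box, which recruits elongins B and C and a cullin to form a ubiquitin ligase. In macrophages SOCS1 is known as a brake on interferon signalling and SOCS3 as a brake on signalling through the IL-6 receptor chain gp130.

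The RNA came from the chromatin fraction of bone-marrow-derived macrophages, primary cells grown from the marrow of C57BL/6J mice, and holds transcripts still attached to the template or not yet exported. The cells received 100 ng/ml Lipid A, the part of lipopolysaccharide that Toll-like receptor 4 senses, for 12 h. They were then kept without it for 12 h before a second exposure at 100 ng/ml for 60 min. The 3 replicate libraries, numbered 1, 2 and 3, were made from 1000, 250 and 500 ng of RNA after ribosomal RNA depletion, and all belonged to this 1 group. No untreated cells and no cells with a single exposure were part of the group, so every value below is a level after the second exposure and not a response to it. The labels list 1 donor entry and separate biosamples for the 3 libraries and do not say whether these were separate animals or cultures. The labels give neither the animals' age nor their sex.

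Replicates 1, 2 and 3 held 12602702, 17222239 and 17042691 gene counts in all. In these libraries 3 counts in a library, the most that an undetected gene was allowed, corresponded to 0.238, 0.174 and 0.176 CPM, the count relative to the library's sum. All 12 macrophage markers had at least 1 TPM (a transcript abundance scaled to length and to the library) in every library, and all 10 neutrophil markers were undetected by expected count, although Cxcr2 had 4.31 ± 0.408 TPM (SD, n = 3) in a second set of deposited tables, in the layout of kallisto. Replicate 2 stood apart. Its 11 fibroblast and stromal markers summed to 49388 counts, against 7 and 115 counts in replicates 1 and 3, and the collagen gene Col1a1 was at 224 TPM there and at 0 and 0.44 TPM in replicates 1 and 3. Over 10011 protein-coding genes with a mean of at least 1 TPM, the median deviation from each gene's own mean was -0.31, 0.38 and -0.09 on the log2 scale in replicates 1, 2 and 3, so that the median gene was highest in replicate 2. In bulk RNA of this kind, fewer cells of a type and less RNA per cell cannot be told apart.

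Within the family Socs3 was the only member with at least 10 TPM in every library, and it held most of the family's RNA. Of the 8 members, 6 had at least 1 TPM in every library (the other two were Cish and Socs2), beside 38.9% of all protein-coding genes. The 1 member at 10 TPM or more compares with 16.7% of protein-coding genes, and the 0 members at 100 TPM or more in every library compare with 2.15%. The family's summed TPM was 121, 127 and 165 in replicates 1, 2 and 3, of which Socs3 accounted for 83.4, 73 and 80.1%. Its share averaged 78.8 ± 5.3% (SD, n = 3), or 69.6 ± 7.82% in the second set of transcript values, which the authors made in the layout of the program kallisto.

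**Figure D1:**
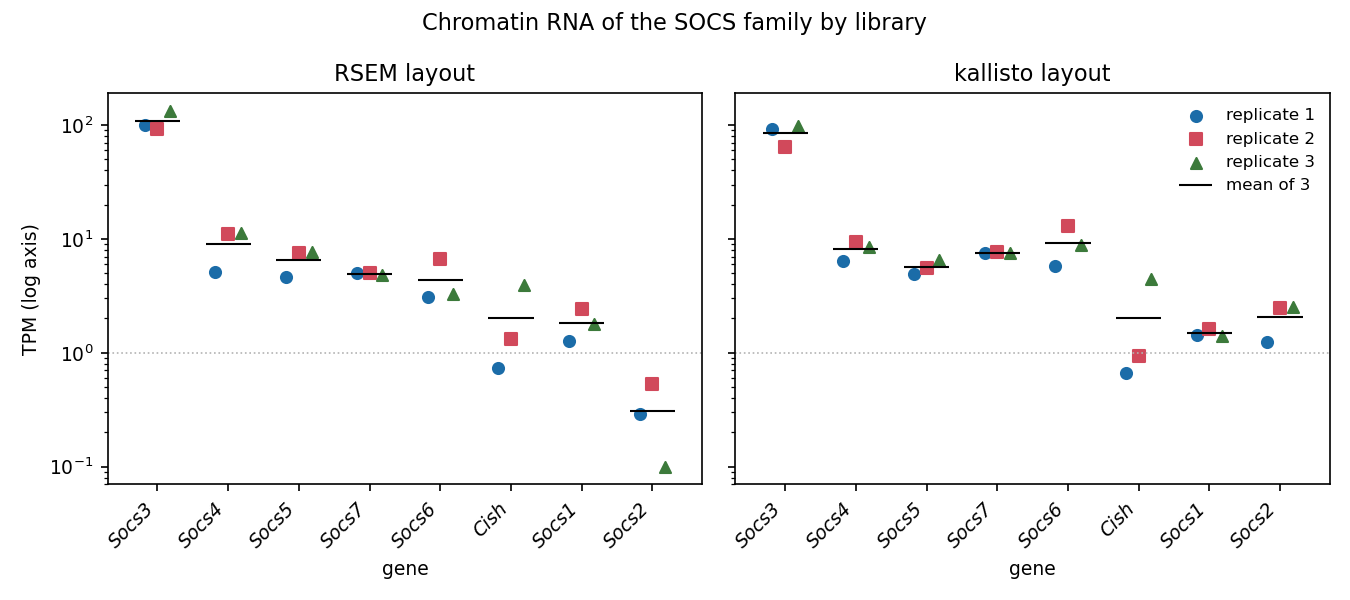
TPM of each SOCS gene (log axis) in replicates 1, 2 and 3, in the gene tables in the RSEM layout (left) and summed from the kallisto layout (right); black lines are means of 3 libraries and the dotted line marks 1 TPM. Socs3 lies between 93 and 132 TPM on the left, above all values of the other 7 genes, while Socs2 lies below 1 TPM on the left and above it on the right.

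Socs3 encodes a protein that binds gp130 and inhibits JAKs directly through a short kinase inhibitory region. The gene (ENSMUSG00000053113.3, mm10 chromosome 11, 117966079 to 117970047, - strand) has its 225 codons in 1 exon. Its level was 101, 93 and 132 TPM in replicates 1, 2 and 3, from 3517, 2805 and 4316 expected counts (fractional read counts, rounded here), with a mean of 109 ± 20.5 TPM (SD, n = 3). The value in replicate 3 was the highest, and the range of Socs3 did not overlap that of any other member. Among protein-coding genes it stood at percentiles 96.3 to 98. On the kallisto scale the mean was 84.2 ± 18 TPM.

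Socs1 encodes the other member with a kinase inhibitory region. The gene (ENSMUSG00000038037.5, chromosome 16, 10782240 to 10785536, - strand) also keeps its 212 codons in 1 exon. Its level was 1.27, 2.4 and 1.78 TPM in replicates 1, 2 and 3, from 51, 81 and 65 expected counts, with a mean of 1.82 ± 0.566 TPM (SD, n = 3). These values lay at percentiles 58.5 to 63.2 of protein-coding genes. The Socs3 level was 79.5, 38.8 and 74.1 times the Socs1 level in replicates 1, 2 and 3, so the gap was narrowest in replicate 2. On the scale of log2(TPM + 1) Socs3 exceeded Socs1 by 5.29 ± 0.43 (SD, n = 3) in 3 of 3 libraries, with p = 0.25 in an exact two-sided permutation of signs (0.292 after Benjamini-Hochberg adjustment over 28 pairs of members). With 3 libraries 0.25 is the smallest p this test can give, so no pair of members could pass 0.05.

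The stretches before the start sites of Socs3 and Socs1 are shown because both genes encode a kinase inhibitory region and had levels far apart. Whether these stretches had a part in the levels was not tested. They come from the RefSeq promoter table (build GRCm38.p6), which held entries for 4 of the 8 members, Socs1, Socs3, Socs4 and Cish. Capitals mark matches, on either strand, to the STAT site named GAS (TTCNNNGAA) or to the core of the interferon-stimulated response element, ISRE (GAAA, any 2 bases, then GAAA). The Socs3 stretch (chr11:117969452-117969616, - strand) is the part of the window outside annotated exons and lies upstream of the start of Socs3-201, the coding isoform. The Socs1 stretch (chr16:10785537-10785786, - strand) ends just before the gene's annotated start.
Socs3 promoter: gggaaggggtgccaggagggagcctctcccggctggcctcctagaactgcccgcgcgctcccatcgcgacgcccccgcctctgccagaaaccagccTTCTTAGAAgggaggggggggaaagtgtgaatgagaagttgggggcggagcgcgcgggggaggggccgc
Socs1 promoter: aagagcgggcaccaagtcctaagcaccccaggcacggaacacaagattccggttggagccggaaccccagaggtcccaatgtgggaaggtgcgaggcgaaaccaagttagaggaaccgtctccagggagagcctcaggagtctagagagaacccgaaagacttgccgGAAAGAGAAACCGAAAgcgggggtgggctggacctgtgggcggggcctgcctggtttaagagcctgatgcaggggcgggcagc

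In Socs3 the GAS match began 154 bases before the RefSeq start (chr11:117969512-117969520). In Socs1 no GAS match was found in the window, and the capitals join a pair of overlapping ISRE-core matches that began 83 and 77 bases before the start (chr16:10785610-10785619 and chr16:10785604-10785613). Of 32851 promoter windows of 250 bases, 7.02% held the GAS letters and 2.98% those of the ISRE core. Neither member's window held the NF-kB letters (GGGA, any base, then TTTCC), found in 0.356% of windows, or the TATA letters TATAAA, found in 12.4%. The windows of Socs4 and Cish held none of these 4 sets of letters. The Cish window (chr9:107296409-107296658) lies wholly inside the first exon of the coding isoform Cish-201, which starts at 107296026. Bases before that start were not searched. A match describes the letters only, and no binding was measured.

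Cish and Socs2 are the pair of members best known as targets of STAT5. Cish encodes CIS, which binds phosphorylated receptors and limits STAT5 signalling. The gene (ENSMUSG00000032578.7, chromosome 9, 107296026 to 107302784, + strand) had 0.74, 1.31 and 3.97 TPM in replicates 1, 2 and 3, from 43, 67 and 225 expected counts, with a mean of 2.01 ± 1.72 TPM (SD, n = 3). Replicate 3 was far above the other two libraries, and without it the mean was 1.02 TPM. The kallisto values, 0.665, 0.939 and 4.42 TPM, had the same order of libraries.

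The coefficient of variation of Cish over the libraries was 85.9%, above that of 91.1% of the 10011 protein-coding genes with a mean of at least 1 TPM. Counting error alone would give 9.46% at these counts. After subtracting each library's median deviation, Cish stood at -0.33, -0.61 and 0.96 on the log2 scale in replicates 1, 2 and 3. Among 114 other genes of the pathway, those nearest to Cish in level over the 3 libraries were Csf2, the gene of the cytokine GM-CSF, and Stat4. The largest difference in any library was 0.56 for Csf2 and 0.57 for Stat4 on the scale of log2(TPM + 1). Csf2 had 0.95, 0.57 and 3.06 TPM in replicates 1, 2 and 3, from only 9, 4 and 24 expected counts. Stat4 had 1.59, 1.68 and 3.06 TPM in the same libraries, and both genes were highest in replicate 3. Stat5a, one of the genes of STAT5, had 14.8, 15.1 and 36.6 TPM and was highest in replicate 3, whereas its relative Stat5b had 3.55, 7.3 and 2.52 TPM and was lowest there. Whether any of these genes had a part in the Cish level was not tested.

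**Figure D2:**
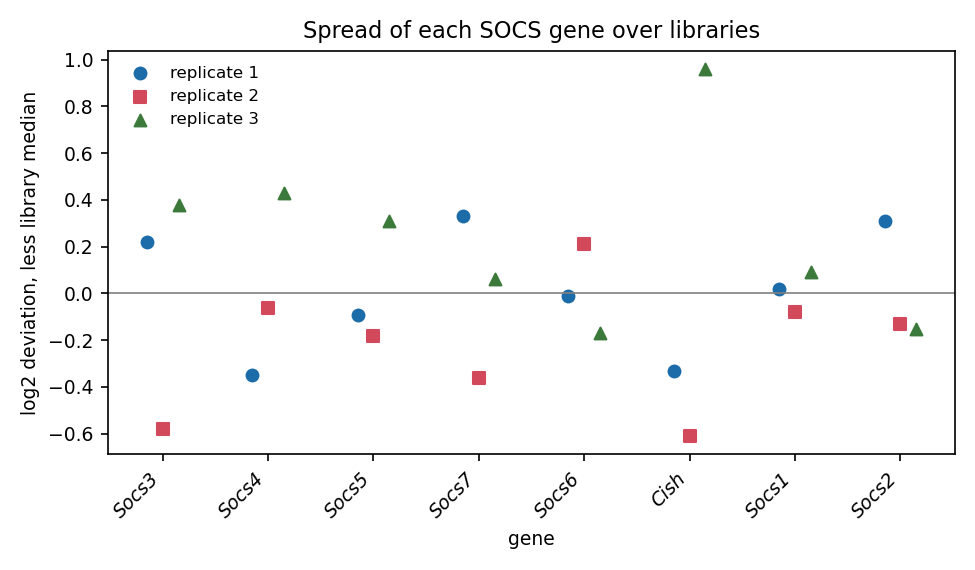
Deviation of each SOCS gene in replicates 1, 2 and 3 from its own mean on the log2 scale, less the library's median deviation over 10011 protein-coding genes; 0 is a gene that moved with its library. Cish in replicate 3 lies at 0.96, above every other point, and Socs1 stays within 0.09 of 0.

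Socs2 encodes a suppressor of growth hormone signalling. The gene (ENSMUSG00000020027.18, chromosome 10, 95385362 to 95417180, - strand) had 3, 7 and 3 expected counts in replicates 1, 2 and 3, which made 0.29, 0.53 and 0.1 TPM and a mean of 0.307 ± 0.215 TPM (SD, n = 3). Only replicate 2 exceeded the level of 3 counts at which a gene was called undetected, and without it the mean was 0.195 TPM. The kallisto tables gave Socs2 33, 102 and 130 estimated counts and 2.08 ± 0.719 TPM, and the posterior mean TPM that the authors deposited beside the first set was 2.31. In the kallisto tables the retained-intron isoform Socs2-206, which shares no base with the exons of the gene's coding isoforms, took 23.3, 64.6 and 97.7 of these counts. Socs2 therefore ranked 8 of 8 by the first set of values and 6 of 8 by kallisto, and its level depends on the quantification.

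The remaining members, Socs4 to Socs7, encode proteins with long N-terminal extensions and have been linked mainly to growth factor and insulin signalling. Their coding regions hold 436, 536, 533 and 579 codons, and that of Socs7 is spread over 9 exons where those of the other three lie in 1. Socs4, linked to the epidermal growth factor receptor, had 5.07, 11 and 11.2 TPM in replicates 1, 2 and 3 (495, 966 and 1059 expected counts), with a mean of 9.09 ± 3.48 TPM (SD, n = 3). The lowest value, in replicate 1, was below the other two. With kallisto Socs4 had 6.43, 9.4 and 8.48 TPM in replicates 1, 2 and 3, highest in replicate 2. Socs4 (ENSMUSG00000048379.9, chromosome 14, 47276931 to 47296102, + strand) lies 73 bases from the start of Wdhd1, a replication gene on the opposite strand. Wdhd1 had 5.37, 15.3 and 6.37 TPM and was highest in replicate 2.

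Socs5, also linked to the epidermal growth factor receptor (ENSMUSG00000037104.9, chromosome 17, 87107679 to 87137839, + strand), had 4.61, 7.5 and 7.64 TPM in replicates 1, 2 and 3, with a mean of 6.58 ± 1.71 TPM (SD, n = 3). Like Socs4 it was lowest in replicate 1. Socs7 (ENSMUSG00000038485.5, chromosome 11, 97362551 to 97398542, + strand) had 5, 4.97 and 4.81 TPM from 339, 411 and 411 expected counts, with a mean of 4.93 ± 0.102 TPM (SD, n = 3). Its coefficient of variation, 2.07%, was lower than the 5.08% that counting error gives at these counts, and 0.22% of the 10011 genes had a lower one. On the CPM scale, which is not divided by length, Socs7 was at 26.9, 23.9 and 24.1, and its effective length in the tables was 4674, 6215 and 5999 bases, shortest in replicate 1. The kallisto level of Socs7 was higher, at 7.58 ± 0.028 TPM (SD, n = 3).

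Socs6, linked to insulin and KIT receptor signalling (ENSMUSG00000056153.15, chromosome 18, 88665224 to 88927481, - strand), had 3.1, 6.66 and 3.27 TPM in replicates 1, 2 and 3 from 157, 353 and 223 expected counts, with a mean of 4.34 ± 2.01 TPM (SD, n = 3). Replicate 2, the library with the fibroblast markers, was the highest for Socs6, and replicates 1 and 3 lay close together. The part of the RNA with those markers in the Socs6 value was not tested. The median gene was also highest in replicate 2. Less each library's median deviation, Socs6 stood at -0.01, 0.21 and -0.17 on the log2 scale in replicates 1, 2 and 3. Without replicate 2 the mean was 3.19 TPM. With kallisto Socs6 stood at 5.73, 12.9 and 8.9 TPM, with a mean of 9.19 ± 3.61 TPM (SD, n = 3), 2.12 times that of the first set and again highest in replicate 2. The 3 pseudogenes inside the Socs6 span held at most 1 count in any library.

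The order of the family by mean TPM in the first set was Socs3, Socs4, Socs5, Socs7, Socs6, Cish, Socs1 and Socs2. With kallisto it was Socs3, Socs6, Socs4, Socs7, Socs5, Socs2, Cish and Socs1, so that Socs3 led in both and Socs6 moved from rank 5 to rank 2. In the first set the ranges of Socs3 and Socs4 did not overlap, and neither did those of Socs1 and Socs2. Each of the other neighbours in this order overlapped in range: Socs4 with Socs5, Socs5 with Socs7, Socs7 with Socs6, Socs6 with Cish and Cish with Socs1. Over all 28 pairs, 24 differed in the same direction in every library and 21 had ranges that did not overlap. The smallest adjusted p over the 28 pairs was 0.292 (exact two-sided sign-flip test on log2(TPM + 1)). Cish was above Socs1 by mean TPM but differed from it by -0.03 ± 0.76 (SD, n = 3) in log2(TPM + 1), higher in replicate 3 and lower in the others.

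The annotated isoforms divided the members by how much of their chromatin RNA was assigned to transcripts without a protein-coding annotation. Reads from introns of unspliced coding RNA were not separated here from reads of those transcripts. Socs1 and Socs4 have no isoforms without a coding annotation. For Socs3 they held 0.238, 0.774 and 0.243% of the gene's TPM in replicates 1, 2 and 3, so that Socs3-201, the coding isoform, held 99.6% on average. At the other end, Cish had 73, 69.5 and 75.6% of its TPM in such isoforms, above the share of every other member in each library of this set. Socs5 was between them at 49.6, 30.4 and 48.6%, all of it in Socs5-202, a processed transcript with 87.6% of its bases outside the exons of the coding isoforms.

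**Figure D3:**
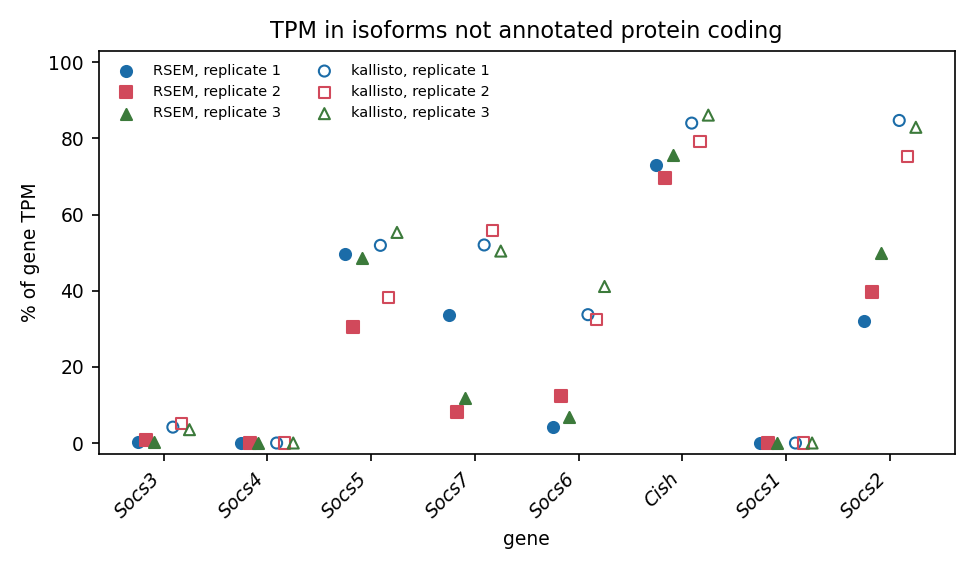
Percent of each SOCS gene's TPM in isoforms not annotated as protein coding, in replicates 1, 2 and 3, from the RSEM layout (filled) and the kallisto layout (open). Cish lies between 69.5 and 86.1% in both, Socs3 reaches at most 5.25%, and Socs7, Socs6 and Socs2 are higher with kallisto in every library.

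The isoform assigned most of the Cish TPM was Cish-202, a processed transcript of 4697 bases, which held 0.54, 0.91 and 3 TPM in replicates 1, 2 and 3. The coding isoform Cish-204 held 0.2, 0.4 and 0.89 TPM, and both were highest in replicate 3. Another coding isoform, Cish-201, held 0, 0 and 0.08 TPM in replicates 1, 2 and 3. Of Cish-202, 59% lies outside the exons of the coding isoforms, and 771 of its bases are coding bases of those isoforms. How much of its TPM came from unspliced RNA of the coding isoforms was not tested. The first exon of Cish-202 is 2872 bases long and runs on into the first intron of Cish-201. The stretch where they part (mm10, chr9:107297015-107297094, + strand, from the GENCODE M21 transcript sequence) is shown with the first 20 coding bases of Cish-201 in capitals and the 60 intron bases that follow, which Cish-202 keeps, in lower case.
Cish-202 exon end and intron: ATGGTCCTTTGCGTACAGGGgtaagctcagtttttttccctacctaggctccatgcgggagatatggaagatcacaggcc

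A pair of genes on the opposite strand overlaps Cish, the antisense gene Gm17041 and the pseudogene Gm17040, and each had 0 counts in all 3 libraries. The strand setting of the counting is not given in the sources used here, so reads from opposite strands may not be told apart.

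The balance of isoform classes was tested with limma on log2 of the summed TPM of isoforms not annotated protein coding over that of coding isoforms, each plus 0.1, across 5596 protein-coding genes with both classes and a mean of at least 5 TPM. At an adjusted p of 0.05, 26.1% of those genes were called for more RNA in the isoforms without a coding annotation and 24.0% for more in the coding ones. Of the 6 members with both classes, Socs3 and Socs5 reached 5 TPM. Socs3 was called for its coding isoform, with a log2 ratio of -7.77 ± 0.38 (SE, n = 3, limma adjusted p = 0.00105) in 3 of 3 libraries, or -4.45 ± 0.21 with kallisto (SE, n = 3, limma adjusted p = 0.000304). Socs5 was not called, with -0.42 ± 0.32 (SE, n = 3, limma adjusted p = 0.32).

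With the minimum lowered to 1 TPM, 8277 genes were tested, of which 17.8% were called for the isoforms without a coding annotation and 22.4% for the coding ones. Cish, Socs6 and Socs7 then entered and only Socs2 stayed below. Cish was the 1 member called for isoforms without a coding annotation, at 1.21 ± 0.26 (SE, n = 3, limma adjusted p = 0.029) in 3 of 3 libraries. Reads of unspliced coding RNA were not separated in this ratio. Socs3, Socs6 and Socs7 were called for the coding isoforms, Socs6 at -3.25 ± 0.31 (SE, n = 3, limma adjusted p = 0.00639) and Socs7 at -2.28 ± 0.53 (SE, n = 3, limma adjusted p = 0.0355). Without any minimum Socs7 was no longer called (limma adjusted p = 0.131). With kallisto values and the minimum of 5 TPM, Socs7 stood at 0.15 (limma adjusted p = 0.496), opposite in sign, and its short processed transcript Socs7-202, of 506 bases, held 3.99 TPM, against 0.887 TPM in the first set. Socs6-204, a processed transcript of 1729 bases, stood at 0.19 TPM in the first set and at 2.86 TPM with kallisto, where the Socs6 ratio was -0.83 (limma adjusted p = 0.0203).

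Isoforms of Socs1, both coding and alike in length at 2908 and 2785 bases, were split differently in each library. Socs1-202 held 100, 16.7 and 20.8% of the gene's TPM in replicates 1, 2 and 3, and 86, 52.6 and 100% with kallisto. Replicate 1 was the highest in the first set and replicate 3 in the second, so the split depended on the library and the quantification. Their kallisto sum was 1.48 ± 0.115 TPM (SD, n = 3).

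The other genes of the pathway give the setting of these levels. The 8 genes listed for the ubiquitin ligases that SOCS boxes recruit, subunits and partners, all reached 1 TPM in each library. Their median was 12.5 ± 7.31 TPM (SD, n = 3), against 4.69 ± 1.01 TPM for the SOCS family and 0.493 ± 0.387 TPM for all protein-coding genes. Among genes with a mean of at least 1 TPM the SOCS median was 5.36 TPM and that of protein-coding genes 8.17 ± 2.83 TPM. Eloc and Elob, the genes of elongins C and B, had 22.6 ± 9.39 and 14 ± 11.5 TPM. Cul5, the cullin that joins SOCS boxes, had 9.62 ± 4.04 TPM (29.1 ± 8.18 with kallisto) and its RING partner Rnf7 had 5.17 ± 3.33 TPM. Arih2, a ligase that works with CUL5, was the highest of the list at 90.9 ± 17.7 TPM and was among the 2 pathway genes nearest to Socs3 in level, with 76.7, 85.4 and 111 TPM in replicates 1, 2 and 3.

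The median of the 4 JAK genes was 62.6 ± 7.22 TPM (SD, n = 3), and each reached 10 TPM in all libraries. Tyk2 had 89.4 ± 13.3 TPM and Jak2 had 78.5 ± 27.4 TPM, and Jak2 was above Tyk2 in replicate 3. With kallisto Jak1 (109 ± 21.1 TPM) and Jak2 (105 ± 38.6 TPM) had higher means than Tyk2 (88.2 ± 8.36 TPM). The 7 STAT genes had a median of 81.6 ± 21.2 TPM. Stat2, which carries type I interferon signals, was highest at 478 ± 133 TPM. Stat3, which acts downstream of gp130, had 84.6 ± 21.8 TPM, and Socs3 was 1.18, 0.879 and 2.12 times its level in replicates 1, 2 and 3, so that Socs3 was above Stat3 in 2 of 3 libraries. With kallisto the means had the opposite order, 84.2 ± 18 TPM for Socs3 and 133 ± 34.4 TPM for Stat3.

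Of 28 receptor genes, 25 were detected, and the median over the whole list was 11.2 ± 2.05 TPM (SD, n = 3). Csf2ra, a chain of the GM-CSF receptor, was highest at 279 ± 17.2 TPM, and Il27ra and Lepr were among those undetected by expected count, with 0.813 ± 0.205 and 2.81 ± 0.861 TPM in the kallisto tables. Il10rb, a chain of the IL-10 receptor, was the pathway gene nearest to Socs3 in level, with 84.2, 94.6 and 120 TPM in replicates 1, 2 and 3. Il6st, the gene of gp130 and named here after its values were seen, had 9.07, 22.2 and 12.4 TPM and was below Socs3 in every library. Of 27 ligand genes 16 were detected, led by Il15 at 94.6 ± 29 TPM (426 ± 109 with kallisto), and 11 were undetected, among them Ifng, Il4 and Gh.

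The 12 other inhibitors of the pathway, mainly phosphatases and PIAS proteins, all reached 1 TPM in each library, and 9 of them reached 10. Their median was 23.1 ± 2.01 TPM (SD, n = 3). Ptprc, the gene of the phosphatase CD45, was highest at 760 ± 132 TPM, and Usp18, which blocks the type I interferon receptor, had 75 ± 20.4 TPM. Among the 28 other genes with a SOCS box the median was 0.813 ± 0.186 TPM (1.31 with kallisto and 2.1 with posterior mean TPM) and 9 were undetected, all of the ankyrin-repeat Asb group. Wsb1 was highest there at 429 ± 119 TPM, above Socs3 in every library. Those nearest to the remaining members in level were Il12rb2 and Spsb2 for Socs1, Csf3 and Ctf1 for Socs2, Cul5 and Ptpn11 for Socs4, Pias2 and Asb13 for Socs5, Il6ra and Cul2 for Socs6, and Asb3 and Asb13 for Socs7.

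**Figure D4:**
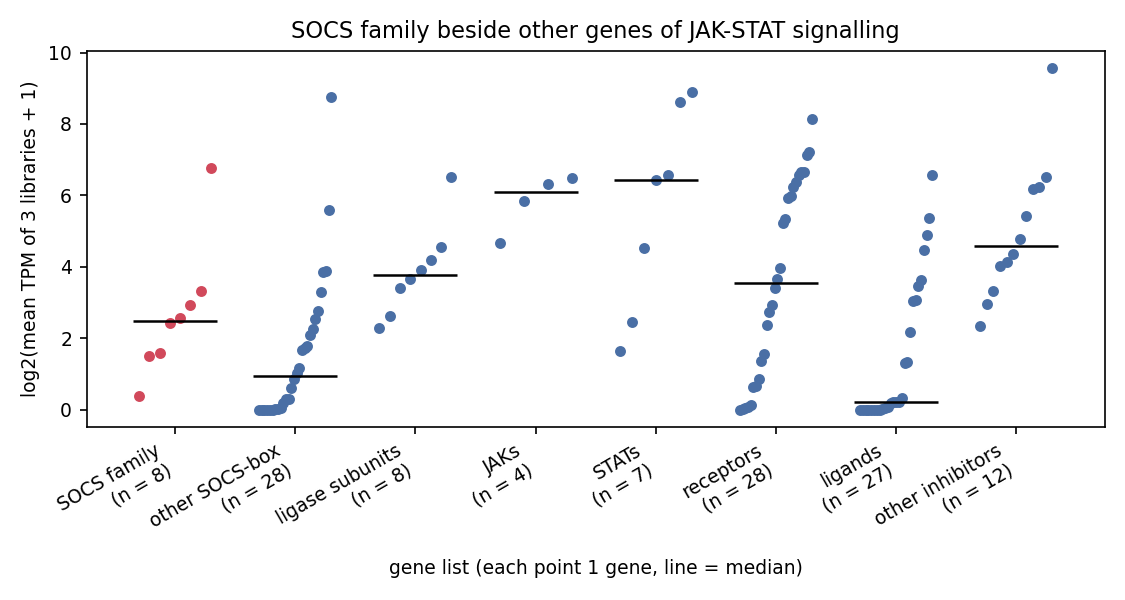
Level of each gene, as log2 of its mean TPM over 3 libraries plus 1, in the SOCS family (red) and in 7 other lists of the pathway (blue); lines are medians of the plotted values. In these values, from the RSEM layout, Socs3 stands apart from the other 7 members, which lie below every JAK gene.

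The neighbours of the SOCS genes on the chromosome had levels of their own. Pgs1, an enzyme of cardiolipin synthesis 16244 bases from Socs3 and on the opposite strand, had 86.3, 126 and 138 TPM in replicates 1, 2 and 3, with a mean of 117 ± 27.3 TPM (SD, n = 3). On 1 side of Socs1, the sperm protein gene Tnp2 had 0 counts in every library, and on the other side Clec16a had 16.9 ± 0.693 TPM (32.9 with kallisto). Mapkapk3, a kinase gene 6148 bases from Cish, had 36.7 ± 5.6 TPM (68 with kallisto), and its values of 32.2, 35 and 43 TPM varied less over the libraries than those of Cish.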

How the data were processed

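Chromatin-fraction RNA was sequenced in 3 libraries of 1 group. The authors deposited expected counts of genes and transcripts in the RSEM layout. Per the file notes these rest on reads aligned to mm10 transcripts of GENCODE M21. TPM values, as maximum likelihood and as posterior mean estimates, were deposited by the authors beside them and correct for effective length. Estimated counts and TPM per transcript in the layout of kallisto were also deposited by the authors and were summed here per gene. Not given in the sources used here are the aligner, tool versions and whether counting used strand, so overlapping and antisense genes may share reads.

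Rows naming no gene held 1.94, 0.269 and 0.386% of counts and were left out. A gene with at most 3 expected counts in each library was called undetected, a floor that covers counting error only. Kallisto estimated counts summed to 19502402, 30678687 and 29638293 in replicates 1, 2 and 3. The libraries were not copies of each other (chi-square per gene of 61.5 to 102 over pairs).

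Pairs of members were compared by the exact two-sided sign-flip test of their differences in log2(TPM + 1) within each of 3 libraries. The pseudocount of 1 understates differences of low genes. The isoform ratio was fitted with limma 3.58.1 in R 4.3.3 (intercept, empirical Bayes, Benjamini-Hochberg over all genes tested). On simulated data of 5596 genes with 200 changed, a log2 ratio of 2 was recovered for 42% and one of 4 for 88%. Python 3.11.15 with pandas 2.3.3 and numpy 2.4.6 read the tables. The spread between these samples, on which the limma p-values rest, may be technical, since the labels do not say that they were separate animals or cultures. The sign-flip test also treats these samples as independent.

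Named genes were all 8 members, the isoforms with at least 10% of a member's TPM, the neighbouring and overlapping genes, and the 2 pathway genes nearest in level. From each pathway list the 3 highest, the lowest detected and the undetected genes could be named, or all genes of a list of at most 8. Members and lists were chosen with earlier results of these data known. By expected count, among T and NK cell, B cell, mast cell and basophil, dendritic, and erythroid and megakaryocyte markers, 7 of 10, 5 of 8, 5 of 8, 2 of 7 and 4 of 8 genes were undetected, although with kallisto the T cell marker Cd3d had 14.4 ± 4.64 TPM (SD, n = 3). Protein sequences were not used here. Some pathway genes that the rule names are not reported here.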

Additional observations from a re-analysis of the deposited data

How the results depend on the processing

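Of 196 pair differences under the alternatives, 14 had another sign than the main value, 5 of them among pairs with 1 direction in every library. With kallisto TPM the log2(TPM + 1) difference of Socs4 minus Socs6 was -0.11, Socs5 minus Socs6 -0.55, Cish minus Socs2 -0.22 and Socs1 minus Socs2 -0.29, each opposite in sign to the main value, and with posterior mean TPM Socs1 minus Socs2 was -0.28. The other 9 came from pairs whose direction differed between libraries: Cish minus Socs1 (-0.03) was 0.07 to 0.40 in 5 alternatives, Socs5 minus Socs7 (0.33) was -0.36 with kallisto and -0.46 with CPM, and Socs7 minus Socs6 (0.21) was -0.19 with kallisto and -0.08 with posterior mean TPM. The cause was not tested. The family median was 6.33 TPM with kallisto. Members at 1 TPM or more in every library numbered 6 in the main values, 7 with kallisto and 8 with posterior mean TPM. They numbered 7, 6 and 6 without replicates 1, 2 and 3. Members at 10 TPM or more in every library numbered 1 to 2 when each replicate was left out in turn, the 2 without replicate 1 being Socs3 and Socs4. The number of pairs with 1 direction in every library was 20 to 26 over all alternatives.

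Counts of genes called in the isoform test moved more. For isoforms without a coding annotation 1462 genes were called, with 3080 for kallisto TPM, 973 for expected counts plus 1 and 387 to 1117 when a replicate was left out (387 without replicate 3). For coding isoforms 1341 genes were called, with 3067 for expected counts plus 1 and 543 to 1138 when a replicate was left out (543 without replicate 3). Leaving out a library also leaves 2 samples to estimate the spread. The Socs3 call held in every alternative that tested it, with log2 ratios of -10.49 for expected counts plus 1 to -4.45 for kallisto TPM. Socs5 was called only with expected counts plus 1, which are not divided by length, at -1.58 (limma adjusted p = 0.0163), and its limma adjusted p in the other alternatives was 0.222 to 0.901. The low counts of Socs2 limit any statement on it. No paired analysis was possible because all samples belong to 1 group.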

Other observations

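Ligand genes of the pathway differed in the library in which they were highest. Il12b, Il6, Ifnb1 and Il10, chosen after their values were seen, were each highest in replicate 3 and lowest in replicate 2, as Socs3 was. Il12b had 14.3, 3.16 and 46.1 TPM in replicates 1, 2 and 3, and Il6, the gp130 cytokine, had 12.5, 5.07 and 16.7 TPM. Ifnb1, the gene of interferon beta, had 6.87, 3.28 and 11.9 TPM, and Il10 had 6.58, 4.41 and 10.7 TPM. Socs1 did not follow this order in TPM, with its highest value in replicate 2, where the median gene was also highest. Less each library's median deviation, Socs1 stood at 0.02, -0.08 and 0.09 on the log2 scale in replicates 1, 2 and 3. Socs3 stood at 0.22, -0.58 and 0.38 on that scale, so both were then highest in replicate 3 and lowest in replicate 2. The replicates carry no label that orders them, and no test was made.

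Receptor genes included several whose expected counts came almost wholly from replicate 2. The growth hormone receptor gene Ghr had 0, 202 and 2 counts and the oncostatin M receptor gene Osmr had 0, 102 and 1 counts in replicates 1, 2 and 3, beside 7, 49388 and 115 counts of fibroblast and stromal markers. With kallisto Ghr had 2.49 ± 2.82 TPM and Osmr 1.35 ± 1.24 TPM, against 1.96 ± 3.35 and 0.54 ± 0.927 TPM in the first set (SD, n = 3). Relative to the mean the kallisto spread was smaller, so there the RNA was less confined to 1 library. Both genes were chosen after their values were seen.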
